A study of Homo sapiens with 15 samples.

Results

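Late-numbered miRNAs, the human miRNAs whose miRBase number is 3000 or more, held 127 members among the 1707 miRNAs listed in 15 miRNA-Seq libraries of the human glioblastoma line U87-MG. The members were the rows named hsa-miR-N with such a number, the arms of miR-5010 left out, and they were chosen by their measured values: a raw count of at least 10 in at least 3 libraries. Of the 884 listed rows with a late number, 757 stayed under that count. Of the 821 listed miRNAs with a lower number, here called older miRNAs, 459 reached it. Levels of the members are therefore a description of what the rule selected, with no test.

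The libraries fell into 5 groups of 3. Control cells, which the labels call WT, were kept for 24 h at 21% O2 (normoxia) or at 1% O2 (hypoxia), and cells without HIF1α (HIF1α-KO), without HIF2α (HIF2α-KO) or without both (HIF1α/HIF2α-KO) were kept for 24 h at 1% O2. The knockouts of the hypoxia-inducible factors HIF1α and HIF2α were made with CRISPR/Cas9 and guide RNAs, and the sources used here do not state whether a line was a clone. No label says that replicates were separate cultures, so p-values measure the spread between these libraries, which may be technical. The libraries hold no mRNA, so the knocked-out genes could not be checked in them.

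A miRNA is a short RNA cut from the 5p or 3p side of a hairpin, and it pairs with mRNAs mainly through its seed, bases 2 to 8. miRBase numbers follow the order of submission, so late numbers mark miRNAs that came largely from deep sequencing, after the abundant and conserved families had been named. Such miRNAs are known for low levels, for positions inside introns, and for reads that can be hard to tell from fragments of other RNAs. HIF1α and HIF2α are the oxygen-controlled subunits of the transcription factors that switch genes on under hypoxia.

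The sequences below belong to the most abundant members, to members described in the comparisons between groups, and to older miRNAs that a member closely resembles. They were taken from RefSeq (GRCh38.p14), where 115 of the 127 members had a mature sequence, and capitals mark the seed.
miR-9985: uUCACAGUggcuaagcuau
miR-27b-3p (older): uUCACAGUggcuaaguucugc
miR-4510: uGAGGGAGuaggauguaugguu
let-7c-5p (older): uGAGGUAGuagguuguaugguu
miR-4324: cCCUGAGAcccuaaccuuaa
miR-125b-5p (older): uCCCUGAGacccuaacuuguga
miR-4521: gCUAAGGAaguccugugcucag
miR-7974: aGGCUGUGaugcucuccugagccc
miR-3615: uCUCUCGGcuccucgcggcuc
miR-3909: uGUCCUCUagggccugcagucu
miR-3617-5p: aAAGACAUaguugcaagauggg
miR-3617-3p: cAUCAGCAcccuauguccuuucu
miR-4423-5p: aGUUGCCUuuuuguucccaugc
miR-4423-3p: aUAGGCACcaaaaagcaacaa
miR-6505-5p: uUGGAAUAggggauaucucagc
miR-3173-5p: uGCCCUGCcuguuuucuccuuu
miR-3074-3p: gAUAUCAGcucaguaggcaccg
miR-12136: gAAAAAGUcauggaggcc
miR-4485-3p: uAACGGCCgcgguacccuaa

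Library totals were between 10360337 and 22496373 counts, and between 15327 and 41290 of these were counts of members. Levels are given as CPM, the count divided by the library total and scaled to a total of 1000000,, on which scale 10 counts stood for 0.445 to 0.965 CPM and 3 counts for at most 0.290 CPM. A count of 0 allows a level up to that of 3 counts, and this covers counting error only. Among markers of cell types, miR-21-5p, abundant in glioma, was between 165043 and 255236 CPM. The neuronal markers differed: miR-124-3p was at 0 in 10 libraries, but miR-9-5p was at 1964 to 8497 CPM and miR-128-3p at 866 to 2213 CPM. The endothelial miR-126-3p and the red cell miR-451a were low, at 3.83 to 51.0 and 2.08 to 18.7 CPM. The summed CPM of the miR-126 arms was 14.5 to 51.9 in 9 libraries and 3.90 to 6.95 in the other 6. All 3 normoxic libraries were among the 9, as were 2 HIF1α/HIF2α-KO, 2 HIF2α-KO, 1 HIF1α-KO and 1 hypoxic control library.

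The members were rare as a class. Their summed share of a library's counts was between 0.133 and 0.202%. Their share was 0.191 ± 0.0122% in normoxic control cells, 0.181 ± 0.00887% in hypoxic control cells, 0.167 ± 0.00659% where both factors were knocked out, 0.156 ± 0.0107% in HIF1α-KO cells and 0.150 ± 0.0205% in HIF2α-KO cells (SD, n = 3). Without miR-9985, the most abundant member, the shares in the same order were 0.142 ± 0.0159, 0.114 ± 0.0145, 0.113 ± 0.0217, 0.108 ± 0.00555 and 0.101 ± 0.0295% (SD, n = 3). The median over members of their median level was 1.30 CPM, against 10.5 CPM for the older miRNAs. Of the 127 members, 75 had a median of at least 1 CPM, 14 of at least 10 CPM and 4 of at least 100 CPM. A count of 10 was reached in all 15 libraries by 56 members, and 6 members were at 0 in at least 1 library. No member reached 10 counts in the libraries of 1 group alone.

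**Figure D1:**
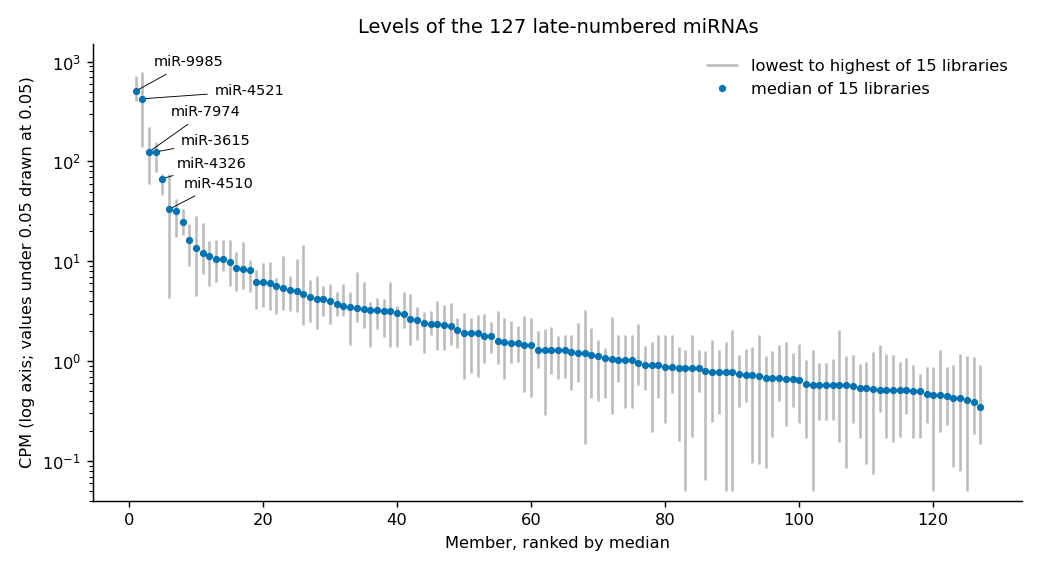
Level of each of the 127 members in CPM on a log axis, ranked by the median of the 15 libraries (points), with the lowest and highest library (bars; values under 0.05 CPM are drawn at 0.05). A few members stand far above the rest: miR-9985 and miR-4521 lie above 100 CPM in every library, and most medians lie near 1 CPM.

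A handful of members made up most of these counts. miR-9985 held 31.5% of all member counts, the leading pair held 57.6%, the leading 6 held 78.6% and the leading 20 held 89.4%. By number, 50 of the 181 listed miRNAs in the 3000s were members, as were 31 of 253 in the 4000s, 10 of 67 in the 5000s, 20 of 306 in the 6000s, 5 of 37 in the 7000s and 11 of 40 from 8000 up. The 20 members in the 6000s held 1.69% of the member counts, and their leading member was miR-6130, with a median of 6.15 CPM. The members just inside the threshold, with a third-highest count of 10, included miR-10399-5p, miR-3177-3p and miR-3193, 3 of 8 tied at that value. miR-10523-5p, miR-12117 and miR-3664-3p were 3 of 12 just outside, at 9.

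The most abundant member, miR-9985, is annotated at chrY:4606120-4606228 on the plus strand, outside the genes of the annotation. It was at 506, 512 and 433 CPM in normoxic control cells, 590, 703 and 709 in hypoxic control cells, 544, 444 and 456 in HIF1α-KO, 407, 597 and 472 in HIF2α-KO and 458, 442 and 715 in HIF1α/HIF2α-KO libraries. The hypoxic control libraries were all above the normoxic and HIF1α-KO libraries and overlapped with the other two groups. Its first 15 bases, seed included, were those of miR-27b-3p and miR-27a-3p. miR-27b-3p had a median of 11439 CPM. Across the libraries the count of miR-9985 was 3.68 to 6.05% of that of miR-27b-3p, a 1.65-fold range. The CPM of miR-9985 itself had a 1.76-fold range. How much of the miR-9985 count came from reads of the miR-27 family was not tested.

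miR-4521 (chr17:8186945-8187004, plus strand) was the next in level. It was at 536, 616 and 792 CPM in normoxic control cells, 493, 395 and 300 in hypoxic control cells, 424, 344 and 354 in HIF1α-KO, 526, 140 and 382 in HIF2α-KO and 477, 558 and 252 in HIF1α/HIF2α-KO libraries. The normoxic libraries lay above the hypoxic control libraries without overlap, and the HIF2α-KO libraries ran from 140 to 526 CPM. In the edgeR fit described below, the log2 fold change of miR-4521 in hypoxic against normoxic control cells was -0.77 (SE 0.38, edgeR adjusted p = 0.724). miR-7974, in an intron of ZNF653 on chromosome 19, had a median of 125 CPM and a range of 59.5 to 222 CPM. miR-3615, on chromosome 17, also had a median of 125 CPM but a narrower range, 77.8 to 158 CPM. miR-4326, for which no RefSeq sequence was found, had a median of 67.1 CPM and a range of 46.1 to 75.0 CPM.

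miR-4510 (chr15:35926856-35926923, plus strand) divided the libraries otherwise than by group. It was at 30.8, 54.8 and 48.6 CPM in normoxic control cells, 74.1, 8.18 and 6.95 in hypoxic control cells, 6.75, 6.97 and 33.2 in HIF1α-KO, 58.2, 4.33 and 56.8 in HIF2α-KO and 49.7, 65.4 and 5.57 in HIF1α/HIF2α-KO libraries. The 9 libraries with more miR-126 were at 30.8 to 74.1 CPM and the other 6 at 4.33 to 8.18 CPM, with no overlap. Among the 562 miRNAs tested, 2.31% were higher in all of the 9 than in all of the 6. miR-4510 was the only one of the 111 members tested among them. That share includes miR-126-3p, which defined the sets together with miR-126-5p. A further 0.356% were lower in all of the 9, with 0 members among them. The mature sequence of miR-4510 differs from that of let-7c-5p by U6G and U13A, counted from the 5′ end with the base of let-7c-5p named first. Its count was 0.0157 to 0.191% of that of let-7c-5p, a 12.2-fold range, so it did not keep a fixed ratio to let-7c-5p.

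**Figure D2:**
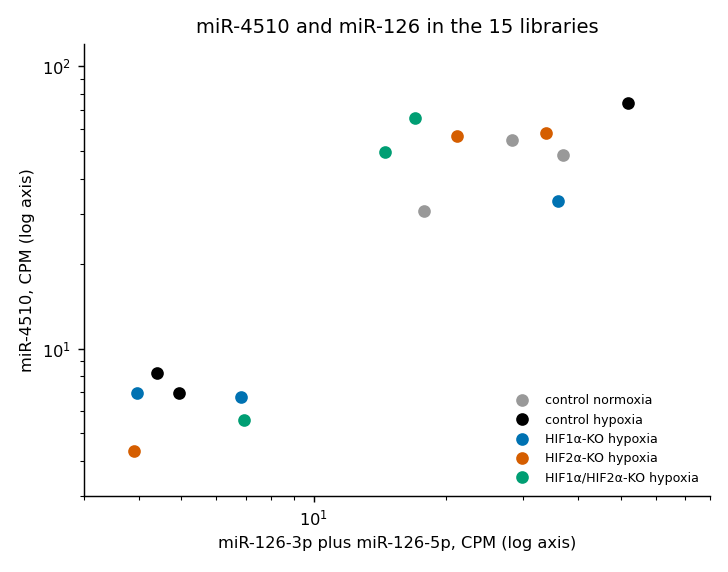
miR-4510 against the summed arms of miR-126, both in CPM on log axes, 1 point a library, coloured by group. The 9 libraries with at least 14.5 CPM of miR-126 lie at 30.8 CPM of miR-4510 or more and the other 6 lie at 8.18 CPM or less, and every hypoxic group has points in both clusters.

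Other members also resembled an older miRNA. The first 15 bases of miR-4324 are bases 2 to 16 of miR-125b-5p, and miR-4324 was counted at 0.00114 to 0.00947% of the level of miR-125b-5p. Outside the members, miR-27a-3p and miR-27b-3p differ by U19C, and miR-27a-3p was counted at 100.3 to 102% of miR-27b-3p in each library. The seed of miR-9985 was that of the miR-27 pair, that of miR-3129-5p was shared with miR-199a-3p and miR-199b-3p, that of miR-4676-3p with miR-452-5p, and that of miR-3155b with miR-484. Among themselves the members held 110 distinct seeds, and 10 members shared a seed with another member, such as miR-4510 with miR-6130.

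The counts of most members with several genomic copies were whole multiples. Of the 9 members with more than 1 hairpin in RefSeq, 7 had counts with a common divisor above 1 in all 15 libraries. Every count of miR-3179, with 4 hairpins, was a multiple of 4 (24 to 160 counts), and every count of miR-4435 and miR-6511b-3p, with 2 hairpins each, was a multiple of 2. The counts of miR-6770-3p and miR-3180-5p, with 3 hairpins each, were multiples of 3. miR-6511a-3p had 3 hairpins and multiples of 4, and miR-3180-3p had 2 and multiples of 3. The count of miR-3180, which holds the first 19 bases of miR-3180-3p, was exactly 2 parts to 3 of the count of miR-3180-3p in 12 of 15 libraries, so these rows were not independent. Divided by the common divisor, miR-3180-5p no longer reached 10 counts in 3 libraries, and 126 members were left. Of the 451 other miRNAs tested, with 1 hairpin or more, 9 had a common divisor above 1. That is not a like base for the 9 members. Of the 419 older miRNAs at the same count with a RefSeq sequence, 36 had more than 1 hairpin.

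Both arms were members for 15 hairpins. The 5p arm was the higher in all 15 libraries for miR-3617 and miR-3152, and the 3p arm for miR-4797 and miR-10399. miR-3617-5p was 4.56 to 23.2 times its 3p arm, and miR-10399-5p was 0.0233 to 0.286 times its 3p arm. The arms of miR-4755 (chr20:34049119-34049190, in an intron of RALY) carried the same count in each of the 15 libraries, from 4 to 34 counts, although their sequences differ. The arms of miR-4717 (chr16:2274620-2274691) also carried equal counts, from 3 to 21. These were the only 2 of 197 listed hairpins with at least 30 counts on each arm for which the arms had the same count throughout. Each of these pairs therefore held 1 measurement.

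Length, composition and genomic position of the members were set beside those of the older miRNAs as a description, with no test. Of the members with a sequence, 11 (9.57%) were shorter than 20 bases, against 2.63% of the older miRNAs that reached the same count. Their median GC content was 52.6%, with a range of 22.7 to 83.3%, against a median of 47.8%. An intron of a gene on the same strand held 56.5% of the members and 58.9% of the older miRNAs, and an exon held 13.9% and 17.9%. In 14 members (12.2%) the mature sequence ended within 3 bases of a splice site, at the last base of an intron, against 4 older miRNAs (0.955%). In a mirtron, a miRNA made from a short spliced intron, the hairpin spans a whole intron. A hairpin with both ends near those of an annotated intron was found for 0 members and for 3 older miRNAs (0.716%). Some members with a sequence, such as miR-3661, had no hairpin position but stayed in the totals. The search therefore does not show that no member was a mirtron. Among the 14 members that ended at a splice site were miR-3605-3p in PHC2, miR-6749-3p in ATG2A, miR-6868-3p in EXOC7 and miR-4747-3p in UHRF1. No arm was given in the name of 40 members (31.5%), against 12.2% of the older miRNAs.

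Exact matches to other small RNAs were searched in 5222 small RNA and mitochondrial transcripts of the GENCODE annotation. Of those with a RefSeq sequence, 2 members (1.74%) and 6 older miRNAs (1.43%) had one, which are similar shares. miR-12136 equals bases 1 to 18 of MT-TS1, a mitochondrial transfer RNA of 69 bases, and miR-4485-3p equals bases 893 to 912 of MT-RNR2, the large mitochondrial ribosomal RNA. Nuclear transfer RNAs were not in that search. miR-12136 was at 3.37, 3.76 and 3.08 CPM in normoxic control cells, 5.37, 3.91 and 3.87 in hypoxic control cells, 5.45, 5.09 and 6.47 in HIF1α-KO, 5.05, 10.6 and 5.54 in HIF2α-KO and 3.51, 7.74 and 5.74 in HIF1α/HIF2α-KO libraries. miR-4485-3p was between 3.29 and 9.75 CPM, and its groups overlapped in each of the 5 comparisons. Of the other miRNAs on the list of those named from ribosomal or small nucleolar RNA, miR-3648, miR-4485-5p and miR-3651 were listed and stayed under the threshold, with at most 7 counts.

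miR-3074-3p is cut from the strand opposite the hairpin of miR-24-1 on chromosome 9 (chr9:95086014-95086094, minus strand). It was at 8.65, 9.91 and 9.04 CPM in normoxic control cells, 15.9, 13.2 and 11.4 in hypoxic control cells, 15.7, 14.5 and 15.5 in HIF1α-KO, 11.1, 5.72 and 6.4 in HIF2α-KO and 13.1, 9.63 and 13.5 in HIF1α/HIF2α-KO libraries. The HIF2α-KO libraries lay below the hypoxic control and HIF1α-KO libraries. miR-24-3p, an abundant miRNA cut from the hairpin of miR-24-1, was at 1833 to 2783 CPM. How much of that level came from this hairpin was not tested. The other miRNAs on the list of such antisense partners were not analysed here.

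Spread within groups was measured by the biological coefficient of variation (BCV), the square root of the fitted dispersion. Its median was 0.234 over the 111 members tested and 0.218 over the 450 older miRNAs tested. The order of the medians changed with level. At a mean of up to 1 CPM the median was 0.292 for 38 members and 0.291 for 51 older miRNAs. From 1 to 3 CPM it was 0.215 for 33 members and 0.246 for 81 older miRNAs. From 3 to 10 CPM it was 0.214 for 25 members and 0.252 for 86 older miRNAs. Between 10 and 100 CPM it was 0.233 for 11 members and 0.217 for 108 older miRNAs. Above 100 CPM it was 0.264 for 4 members and 0.178 for 124 older miRNAs. This last range had no upper limit: means of members reached 533 CPM and medians of older miRNAs reached 199945 CPM. Among members with a mean of at least 10 CPM, the most even were miR-3615 (0.175), miR-7976 (0.175), miR-4326 (0.176) and miR-3909 (0.190). The most uneven were miR-4510 (0.839), miR-4443 (0.404), miR-4521 (0.335) and miR-7974 (0.331). These uneven members also differed between the sets of libraries with more and less miR-126, though only miR-4510 without overlap. The medians in the 9 and in the 6 libraries were 12.7 and 19.3 CPM for miR-4443, 526 and 322 CPM for miR-4521, and 161 and 95.3 CPM for miR-7974. Such differences were not particular to the uneven members. The medians were 458 and 650 CPM for miR-9985 (BCV 0.198) and 8.47 and 13.7 CPM for miR-3117-3p (0.250). For the 4 most even members they lay closer: 125 and 122 CPM for miR-3615, 25.2 and 24.8 for miR-7976, 68.9 and 63.4 for miR-4326, and 30.5 and 33.3 for miR-3909.

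**Figure D3:**
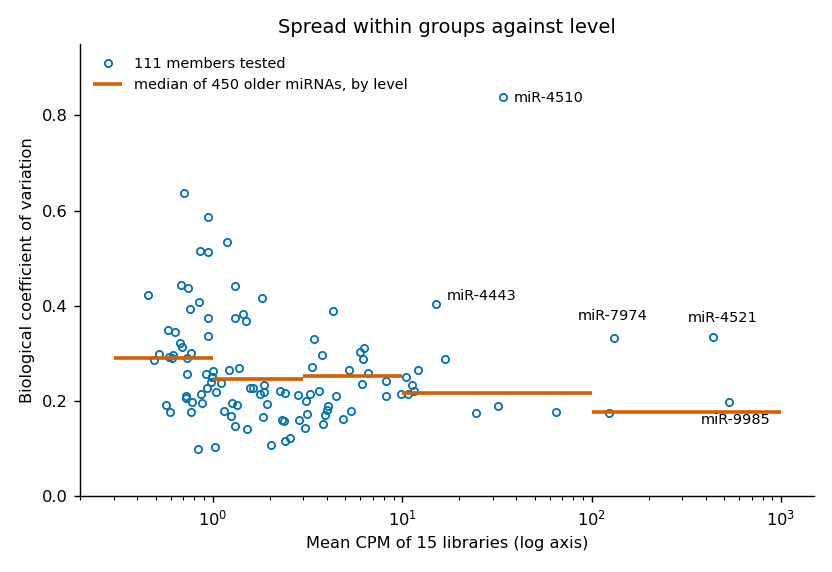
Biological coefficient of variation against mean CPM (log axis) for the 111 members tested (circles), with the median of the older miRNAs in 5 ranges of level (lines). miR-4510 stands alone at 0.839, and miR-4521 and miR-7974 lie above the line of older miRNAs over 100 CPM, a range with no upper limit.

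Group differences were tested for 111 members. The remaining 16 did not pass the filter on low counts, which was applied to all miRNAs, so the counts below do not speak for all members. The test was edgeR's quasi-likelihood F test over the 562 miRNAs that passed, with Benjamini-Hochberg adjustment over all of them. The comparisons with hypoxic control cells share those 3 libraries. Exact permutation tests of 3 against 3 libraries, two-sided, cannot give a p below 0.1, so single members rest on the fit across all miRNAs. The median SE of a log2 fold change was 0.354 to 0.361 for the members and 0.262 to 0.263 for the older miRNAs. Each SE was derived from the test, as the absolute log2 fold change divided by the square root of the F statistic.

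**Figure D4:**
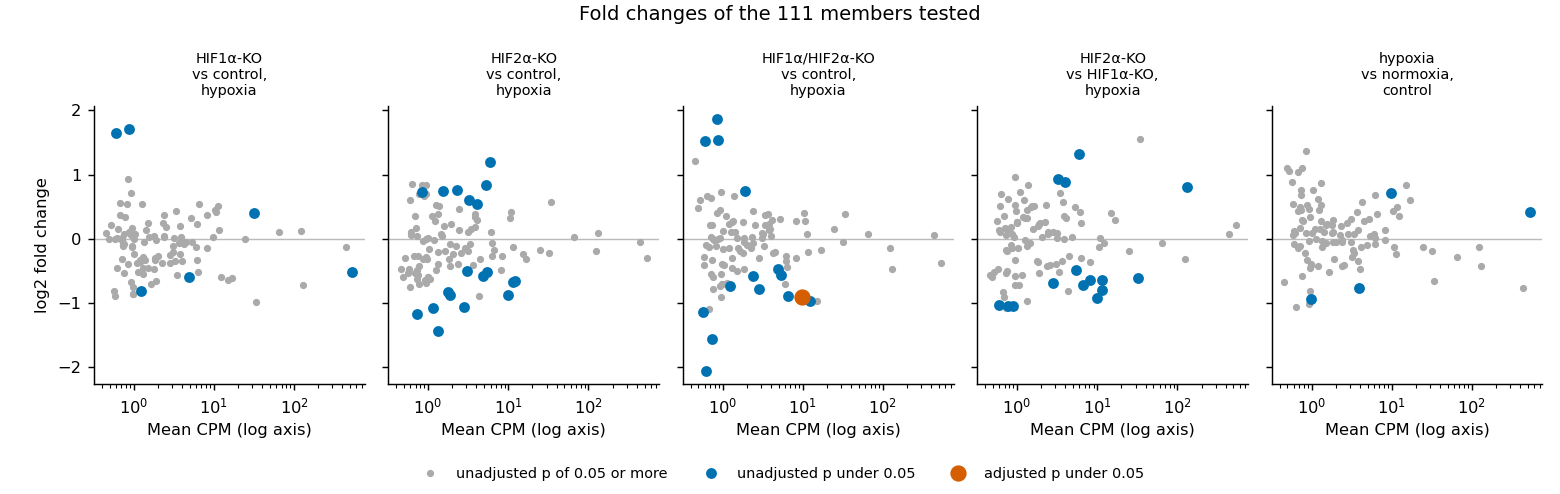
log2 fold change of the 111 members tested against their mean CPM (log axis) in the 5 comparisons, the group named first over the group named second. Colours give the edgeR p before and after adjustment. The lone member past the adjusted threshold is miR-3617-5p, at -0.91 in HIF1α/HIF2α-KO cells, and the widest fold changes lie at the lowest levels.

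In HIF1α/HIF2α-KO cells against hypoxic control cells, miR-3617-5p was the 1 member called. It made up 0.901% of the members tested, against 5.87% called among all miRNAs tested. miR-3617-5p is annotated at chr20:45705102-45705180 on the minus strand, opposite WFDC13. It was at 8.09, 8.45 and 7.07 CPM in normoxic control cells, 10.6, 15.2 and 14.2 in hypoxic control cells, 15.7, 15.2 and 11.1 in HIF1α-KO, 7.35, 5.98 and 6.48 in HIF2α-KO and 5.34, 9.55 and 7.55 in HIF1α/HIF2α-KO libraries. The libraries of hypoxic control and HIF1α-KO cells were all above 10 CPM, and those of the other 3 groups were all below it.

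In HIF1α/HIF2α-KO cells miR-3617-5p was lower, with a log2 fold change of -0.91 (SE 0.23, edgeR adjusted p = 0.0308), and the exact permutation p was 0.1, the smallest possible. Against the same hypoxic control libraries its log2 fold change was -0.88 in HIF2α-KO cells (SE 0.23, edgeR adjusted p = 0.124) and 0.03 in HIF1α-KO cells, where the sign changed when hypoxic control replicate 1 or HIF1α-KO replicate 2 was left out. It was -0.91 in HIF2α-KO against HIF1α-KO cells (edgeR adjusted p = 0.0626) and 0.72 in hypoxic against normoxic control cells (edgeR unadjusted p = 0.0068, adjusted p = 0.661). Its median was 8.09 CPM in the 9 libraries with more miR-126 and 14.7 CPM in the other 6. With the miR-126 sets as a covariate the call held at -0.81 (edgeR adjusted p = 0.0397). It did not pass without hypoxic control replicate 2 (edgeR adjusted p = 0.125) or replicate 3 (0.108), or without HIF1α/HIF2α-KO replicate 1 (0.0982) or replicate 3 (0.0905). Its 3p arm was at 1.32, 1.16 and 1.43 CPM in hypoxic control cells and 1.17, 0.411 and 1.46 in HIF1α/HIF2α-KO cells, with a log2 fold change of -0.40 (SE 0.40) that turned to 0.0059 without HIF1α/HIF2α-KO replicate 2. In HIF2α-KO cells the 3p arm was at 0.891, 0.607 and 0.768 CPM, below each hypoxic control library.

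**Figure D5:**
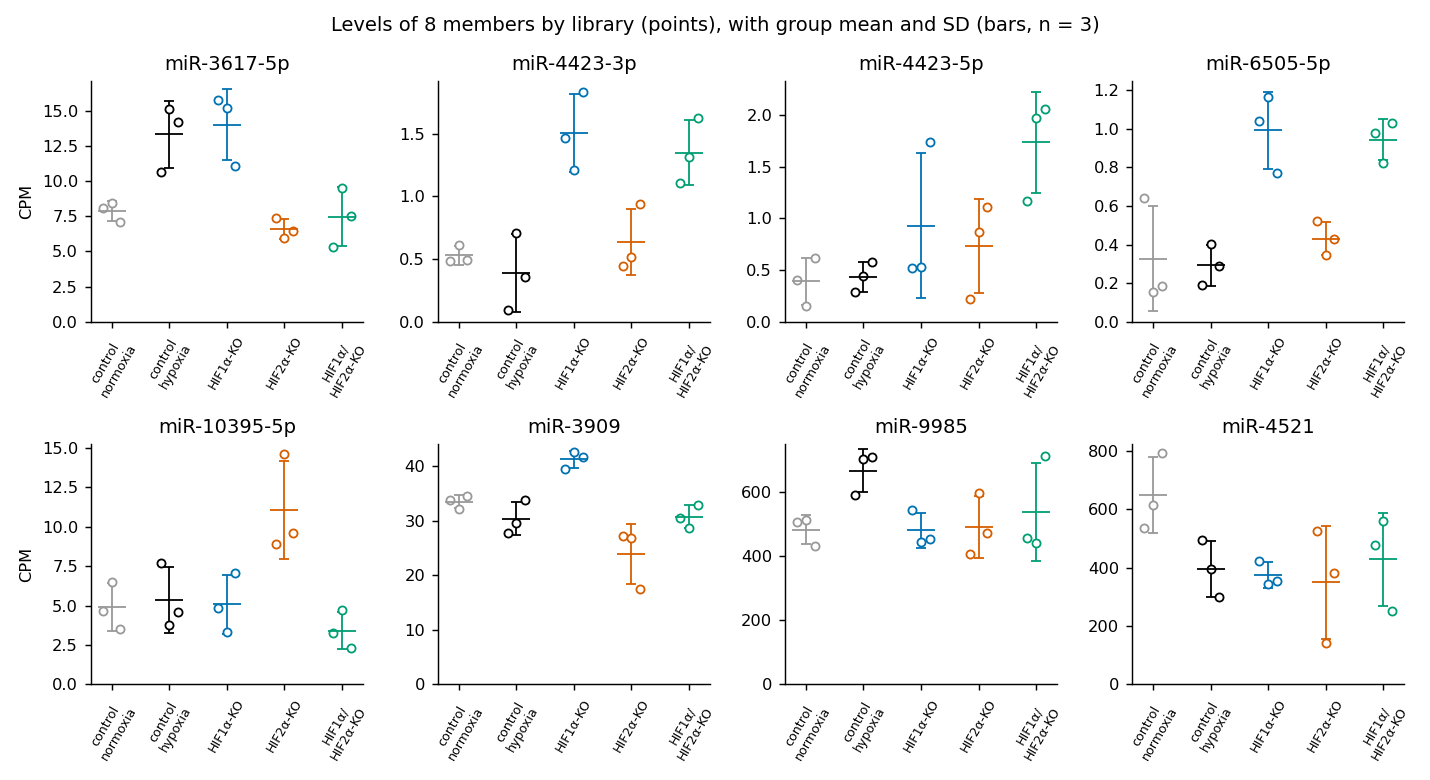
CPM of 8 members in each library (circles) by group, with the mean and SD of the group (bars, n = 3), each axis starting at 0. miR-3617-5p lies above 10 CPM in hypoxic control and HIF1α-KO cells and below it elsewhere, and miR-4423-3p and miR-6505-5p lie highest in the HIF1α-KO and HIF1α/HIF2α-KO libraries.

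At an unadjusted p under 0.05, 4 of the 111 members were higher in these cells and 11 lower, or 3.60 and 9.91%, against 11% and 13.3% of all miRNAs tested. The CPM values did not overlap for 20 members (18.0%), against 30.1% of all. The median log2 fold change was -0.06 over the members and -0.02 over all miRNAs tested. The widest log2 fold changes were in members at low counts. miR-4423, a primate-specific miRNA known from airway epithelium, lies at chr1:85133794-85133873.
miR-4423-5p was at 0.282, 0.445 and 0.573 CPM in hypoxic control cells and 1.17, 1.97 and 2.06 in HIF1α/HIF2α-KO cells (log2 fold change 1.87, SE 0.59, edgeR adjusted p = 0.0655). miR-4423-3p was at 0.0942, 0.711 and 0.358 CPM in the former and 1.11, 1.32 and 1.63 in the latter (log2 fold change 1.55, SE 0.44, edgeR adjusted p = 0.0534). Neither passed the threshold in the edgeR fit. Under alternatives, miR-4423-3p was called by 6, DESeq2's Wald test, limma and the miR-126 covariate among them, and miR-4423-5p by 4, DESeq2's Wald test and the replicate block among them. In this comparison DESeq2's Wald test called 4 of the 111 members and 60 of all 562 miRNAs, and limma called 4 and 38. The levels rest on 1 to 25 counts a library for the 3p arm and 2 to 24 for the 5p arm. The arms of miR-4423 come from 1 hairpin and are not separate support.

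miR-6505-5p was at 0.188, 0.400 and 0.287 CPM in hypoxic control cells and 0.976, 0.823 and 1.03 in HIF1α/HIF2α-KO cells (log2 fold change 1.52, edgeR adjusted p = 0.0543). At the other end, miR-4636, in an intron of SEMA5A, was at 0.659, 0.622 and 0.932 CPM in the former and 0.260, 0.247 and 0 in the latter (log2 fold change -2.05, edgeR adjusted p = 0.0672). Those HIF1α/HIF2α-KO values rest on 4, 3 and 0 counts. miR-4324 was at 1.22, 0.667 and 1.5 CPM against 0.390, 0.329 and 0.429 (log2 fold change -1.56, edgeR adjusted p = 0.0672). miR-3182, in an intron of CDH13 and chosen after its values were seen, was at 24.3, 13.2 and 14 CPM against 7.68, 7.65 and 12.1 (log2 fold change -0.96, edgeR adjusted p = 0.0534).

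In HIF1α-KO against hypoxic control cells, no member passed the adjusted threshold, which 1.25% of all miRNAs did. The smallest edgeR adjusted p was 0.0868. At an unadjusted p under 0.05, 3 members were higher and 3 lower (2.70% each), against 5.69% and 6.23% of all. DESeq2's Wald test also called 0 members and limma called 1, against 12 and 6 of all 562 miRNAs. The CPM of 27 members (24.3%) did not overlap, against 20.3% of all, and the median log2 fold change was -0.06 for the members and -0.05 for all. miR-4423-3p was the highest, at 1.47, 1.21 and 1.83 CPM in HIF1α-KO cells (log2 fold change 1.71, SE 0.44, edgeR adjusted p = 0.0868). miR-6505-5p followed at 1.04, 1.16 and 0.772 CPM (log2 fold change 1.65, edgeR adjusted p = 0.114). Every HIF1α-KO library was above every hypoxic control library for both, and miR-4423-5p overlapped.

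Among members with non-overlapping CPM and an unadjusted p under 0.05, those that ranked lowest by fold change in HIF1α-KO cells were miR-3138, in an intron of WDR1, and miR-3173-5p, in an intron of DICER1, the gene of the enzyme that cuts hairpins into mature miRNAs. miR-3138 was at 1.79, 1.69 and 1.79 CPM in hypoxic control cells and 1.38, 0.920 and 0.772 in HIF1α-KO cells (log2 fold change -0.81). miR-3173-5p was at 5.74, 6.36 and 5.80 CPM in hypoxic control cells, 3.55, 3.58 and 5.12 in HIF1α-KO, 4.09, 3.73 and 3.16 in HIF2α-KO and 4.56, 5.35 and 3.69 in HIF1α/HIF2α-KO libraries. The libraries of each of the 3 knockouts lay below the hypoxic control libraries, and the log2 fold changes were -0.60, -0.57 and -0.46 (edgeR adjusted p = 0.187, 0.219 and 0.165). None passed, and the 3 values share the control libraries. The leading member, miR-9985, had a log2 fold change of -0.52 (SE 0.19, edgeR adjusted p = 0.287). miR-3909, among the most even of the abundant members and in an intron of TOM1, was at 27.8, 29.5 and 33.7 CPM in hypoxic control cells and 39.4, 42.5 and 41.7 in HIF1α-KO cells (log2 fold change 0.40, edgeR adjusted p = 0.381).

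In HIF2α-KO against hypoxic control cells, no miRNA at all passed the adjusted threshold (0%), and 0 members did so by DESeq2's Wald test or by limma. At an unadjusted p under 0.05, 7 members were higher (6.31%) and 12 lower (10.8%), against 8.54% and 6.76% of all miRNAs tested. The CPM of 23 members (20.7%) did not overlap, against 16.9% of all. The median log2 fold change was -0.18 for the members and -0.01 for all, the widest gap of the 5 comparisons. With library totals and no composition factor these medians were -0.31 and -0.15, and with limma they were -0.09 and -0.002. miR-10395-5p, which had no RefSeq sequence, was the highest, at 7.72, 3.78 and 4.59 CPM in hypoxic control cells and 8.91, 14.7 and 9.64 in HIF2α-KO cells (log2 fold change 1.20, SE 0.35, edgeR adjusted p = 0.134). Its 3p arm was at 4.52, 3.60 and 3.15 against 4.83, 3.38 and 4.69 CPM, which overlapped. miR-3180-3p had a log2 fold change of 0.77 and miR-3180, whose counts follow it, of 0.75.

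By the same limits, miR-5699-3p, in an intron of DIP2C, and miR-5100 had the lowest log2 fold changes in HIF2α-KO cells. miR-5699-3p was at 2.17, 1.33 and 1.15 CPM in hypoxic control cells and 0.743, 0.780 and 0.426 in HIF2α-KO cells (log2 fold change -1.07, edgeR adjusted p = 0.194). miR-5100 was at 3.67, 2.49 and 4.66 CPM against 1.78, 1.47 and 1.45 (log2 fold change -1.05, edgeR adjusted p = 0.124). The groups did not overlap for either. miR-3074-3p had a log2 fold change of -0.66 (edgeR adjusted p = 0.220), and the mitochondrial match miR-12136 one of 0.83 (edgeR adjusted p = 0.240), with overlapping groups.

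In HIF2α-KO against HIF1α-KO cells, which asks where loss of either factor left different levels, no member passed the adjusted threshold, which 1.07% of all miRNAs did. DESeq2's Wald test called 4 members, miR-10395-5p, miR-3074-3p, miR-3617-5p and miR-3909, and limma called 0. Of all 562 miRNAs these tests called 20 and 6. At an unadjusted p under 0.05, 4 members were higher (3.60%) and 11 lower (9.91%), against 9.96% and 7.47% of all. The CPM of 25 members (22.5%) did not overlap, against 21.2% of all, and the median log2 fold change was 0.03 for the members and 0.05 for all. miR-10395-5p was at 4.84, 3.34 and 7.05 CPM in HIF1α-KO cells, below each HIF2α-KO library (log2 fold change 1.33, SE 0.35, edgeR adjusted p = 0.0716). miR-6134 was at 2.94, 2.13 and 2.51 CPM against 4.68, 3.12 and 4.95 in HIF2α-KO cells (log2 fold change 0.94, edgeR adjusted p = 0.101).

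Of the lower members, miR-3909 was at 27.2, 26.8 and 17.5 CPM in HIF2α-KO cells, below each HIF1α-KO library (log2 fold change -0.62, SE 0.18, edgeR adjusted p = 0.0931). miR-4423-3p was at 0.446, 0.520 and 0.938 CPM in HIF2α-KO cells (log2 fold change -1.04, edgeR adjusted p = 0.244). miR-6505-5p was at 0.520, 0.347 and 0.426 CPM (log2 fold change -1.04, edgeR adjusted p = 0.252). miR-3074-3p had a log2 fold change of -0.80 (SE 0.23, edgeR unadjusted p = 0.00445, past the adjusted threshold only by DESeq2's Wald test or without HIF2α-KO replicate 1). For each of these 4, every HIF2α-KO library lay below every HIF1α-KO library.

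In hypoxic against normoxic control cells, again no miRNA passed the adjusted threshold (0%), and DESeq2's Wald test and limma called 0 members. At an unadjusted p under 0.05, 2 members were higher and 2 lower (1.80% each), against 3.2% and 3.02% of all miRNAs tested. The CPM of 25 members (22.5%) did not overlap, against 17.6% of all. The median log2 fold change was 0.08 for the members and 0.01 for all. The 2 higher members were miR-3617-5p and miR-9985, at log2 fold changes of 0.72 (edgeR adjusted p = 0.661) and 0.42 (edgeR adjusted p = 0.724). miR-4435, in the long noncoding RNA gene MIR4435-2HG and its copy CYTOR, had the lowest log2 fold change of those with non-overlapping libraries and an unadjusted p under 0.05, at 5.93, 5.99 and 4.06 CPM in normoxic and 2.82, 3.20 and 3.58 in hypoxic control cells (log2 fold change -0.77, SE 0.21, edgeR adjusted p = 0.661). All normoxic libraries had more miR-126 and 2 of 3 hypoxic ones had less, so these sets and oxygen cannot be fully told apart here. miR-9985 had medians of 458 CPM in the 9 libraries with more miR-126 and 650 CPM in the other 6.

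An interaction term compared what HIF1α knockout did in cells that had HIF2α with what it did in HIF2α-KO cells. No member passed after adjustment (0%), nor did any other miRNA. At an unadjusted p under 0.05 there were 13 members (11.7%), against 10.5% of all miRNAs tested. The smallest unadjusted p was that of miR-10395-5p, with an interaction of -1.77 on the log2 scale (SE 0.50, edgeR adjusted p = 0.378). It was at 3.25, 4.69 and 2.32 CPM in HIF1α/HIF2α-KO cells, where HIF2α-KO cells were at 8.91 CPM or more.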

How the data were processed

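Total RNA of U87-MG cells was sequenced as small RNA in 15 libraries, 3 for each of 5 groups, and groups and replicate numbers were taken from the sample labels. The deposited values are raw counts per mature miRNA, which the authors made from their reads. The submitters' processing notes name HISAT2, StringTie and DESeq2, and the genome build and the rule for reads with several positions are not given in the sources used here. CPM is the count divided by the sum of the library's counts.

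Counts were fitted in edgeR 4.0.16 (R 4.3.3) with TMM factors, filterByExpr over the 5 groups and the quasi-likelihood F test, in 1 fit of the 15 libraries, with Benjamini-Hochberg adjustment over 562 miRNAs and a threshold of 0.05. Alternatives were DESeq2 1.42.0 (Wald test) and limma 3.58.1 on quantile-normalized log2(CPM + 1), other scaling factors, no filter, fewer libraries, a replicate block and a covariate. On simulated data for HIF1α-KO against hypoxic control cells, with changes of 2 on the log2 scale in 197 of 567 miRNAs, edgeR recovered 91.4%, with 3.74% false calls. Smaller changes were not simulated, so this recovery does not speak for them. Exact permutation tests used the difference in mean log2(CPM + 1).

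The members and lists were chosen with earlier results of these data known. Members were named by rule: those called, the 2 highest and 2 lowest with non-overlapping CPM and an unadjusted p under 0.05 in each comparison, the 6 most abundant, the 4 most and 4 least even with a mean of at least 10 CPM, those at the threshold, and those on the lists of antisense partners and other RNA classes. miR-12136, miR-3182, miR-3180, miR-3617-3p, the 3p arm of miR-10395, the arms of miR-4755 and miR-4717, and members named for sequence, seed, hairpin copies or splice sites were named after their values were seen. No libraries deposited in duplicate were found: the smallest chi-square per degree of freedom between replicates was 25.7.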

Additional observations from a re-analysis of the deposited data

How the results depend on the processing

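The number of members called moved with the processing, and so did the number called over all miRNAs tested. In HIF1α/HIF2α-KO against hypoxic control cells, where the reported count was 1, it was 3 with library totals and no composition factor, 4 with limma, 4 with DESeq2's Wald test, 3 with no filter on low counts, 4 with the miR-126 sets as a covariate, and 0 to 1 with a library left out. Of the 562 miRNAs tested, 33 were called in the main fit, 50 with library totals, 38 with limma and 60 with DESeq2's Wald test. The number was 61 with the miR-126 covariate, 44 of 1707 with no filter, and 15 to 32 with a library left out. Here miR-3617-5p did not pass with no filter or with the compared libraries alone, and miR-4423-3p was called under 6 alternatives. In HIF2α-KO against HIF1α-KO cells 0 members were called in the main fit. There were 2 with library totals, 4 with DESeq2's Wald test, 2 with no filter, and 0 to 3 with a library left out. Over all miRNAs the number was 6 in the main fit, and then 12, 20, 14 and 2 to 18 in that order. HIF1α-KO against hypoxic control cells had 0 members, 1 with limma and 0 to 1 with a library left out (all miRNAs: 7, 6 and 2 to 6). HIF2α-KO against hypoxic control cells had 0 members, 1 with no filter and 0 to 1 with a library left out (all miRNAs: 0, 11 and 0 to 10). Hypoxic against normoxic control cells had 0 members, and 1 with no filter (all miRNAs: 0 and 15). The causes were not tested. The number of members was 56 with 10 counts in all 15 libraries, 233 with 5 counts in 3 libraries, 79 with 20 counts in 3 libraries, 100 with 1 CPM in 3 libraries, and 126 after division by the common divisor, an alternative chosen after seeing the data.

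Of 737 log2 fold changes of named members under an alternative, 734 kept their direction. The exceptions came with a library left out: miR-3617-3p in HIF1α/HIF2α-KO cells ran from -0.71 to 0.0059, and miR-3617-5p in HIF1α-KO cells from -0.082 to 0.19. With the replicate number as a block, 2 members and 33 of all miRNAs were called in HIF1α/HIF2α-KO against hypoxic control cells. In each of the other comparisons 0 members were called, against 0 to 6 of all miRNAs. The replicate numbers were not used to pair libraries, because in no comparison was every same-numbered pair's correlation over 0.1 (lowest -0.62, highest 0.55). The summed share of members moved by more than the spread between replicates in all 5 groups, to 0.101 to 0.142% without miR-9985 and to 0.191 to 0.234% of a total without miR-21-5p. Depth limits what can be said of the rarer members: 56 of the 127 reached 10 counts in every library.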
